A study of Mus musculus with 15 samples.

Results

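The genes described here are the mouse metalloproteases of the Adam, Adamts and Mmp families, the Adamts-like genes, and the inhibitors Timp1 to Timp4 and Reck. They were picked by symbol, as Adam, Adamts, Adamtsl or Mmp followed by a number, beside the named inhibitors. The array measured 64 of them among 16593 genes in all, namely 25 Adam, 14 Adamts, 2 Adamtsl and 18 Mmp genes, 4 Timp genes and Reck. RNA of the whole cerebellum, taken on postnatal day 1 (P1), was profiled with 1 Illumina bead array for each of 7 KO and 8 WT samples. KO mice were Cxcr4 flox/flox; Sox1-Cre, in which Cre made from the Sox1 gene cuts out exon 2 of Cxcr4 throughout the neural tube. Cells of other origin in the cerebellum, such as the endothelium of its vessels, are not the target of this Cre. WT mice were littermates that carried no Cre, and whether both of their Cxcr4 alleles were floxed is not given in the sources used here. The strain in the labels is C57BL/6 for both genotypes. CXCR4 is the receptor of the chemokine CXCL12, which the meninges secrete over the surface of the developing cerebellum. The comparison of KO with WT asks which of these genes differ in abundance in the cerebellum when the receptor is missing.

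Metalloproteases of these families cut proteins outside the cell with a zinc ion in the active site. ADAMs sit in the membrane and release the outer parts of receptors and ligands, ADAMTS enzymes are secreted and cut proteoglycans such as brevican, and matrix metalloproteases degrade collagens, gelatin and other matrix proteins. TIMPs and the membrane protein RECK hold them in check, and in the young cerebellum such enzymes are known for work at the pial basement membrane, around vessels and on the migration path of granule cells.

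Signals are given on a log2 scale after every array was shifted to a common median of 6.84 over all probes. A difference of 1 on this scale is a doubling, and "above the array median" means a signal over 6.84. The brightest probe stood for each gene. The array median is a level and not a detection limit, and probes differ in brightness for reasons of sequence, so no gene's level is set against another's. The test was limma across all genes, with p-values adjusted by the Benjamini-Hochberg method over all 16593 and a threshold of 0.05.

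Cxcr4 itself lay between 6.45 and 6.89 on the KO arrays and between 8.80 and 9.79 on the WT arrays. Array medians before scaling were 97.3 to 122.9 signal units in KO and 101.2 to 120.8 in WT. Ttr, the main transcript of the choroid plexus, was high (over 12) on KO replicates 2, 3 and 5 and on WT replicates 4, 6 and 8. Xist, the RNA of the inactive X chromosome of females, was high on KO replicate 7 and on WT replicates 1, 2, 3, 4, 7 and 8. Replicates 1 to 4 and 5 to 8 of both genotypes formed separate array sets, a division seen in the data and not named in the labels. The array set, with genotype in the model, had an adjusted p under 0.05 for 17 of the 64 genes, against 20.8% of all genes. Of 23 measured markers of meningeal fibroblasts, 21 had a fold change below 0 and 0 passed the threshold. The mean of these markers, relative to all arrays, was -1.51 to -0.97 on KO replicates 6, 7 and 8, -0.26 to 0.79 on the other KO arrays, and -0.30 to 0.88 on the WT arrays. In RNA of whole tissue, fewer cells of a type and less RNA per cell cannot be told apart.

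Of the 64 genes, 1 was lower in KO (Adamts19) and 0 were higher. Over all genes, 0.0783% were lower and 0.0482% were higher. At an unadjusted p under 0.05 there were 3 lower genes (Adamts19, Timp1 and Adam9), against 2.63% of all genes, and 0 higher ones, against 3.06%. The median log2 fold change was -0.01 for the 64 genes and 0.01 for all genes. The fold change lay within 0.1 of 0 for 45 of the 64 and within 0.25 of 0 for 62. Adamts19 and Timp1 were the exceptions. The shares of all genes within these limits were not computed. Of the 64 genes, 26 were above the array median on no array, and so low a signal limits what a small difference can show. Adamts5 had the highest fold change, at 0.17. The standard error of a difference was between 0.05 and 0.23, with a median of 0.08, so that small changes were not detectable with this number of arrays.

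**Figure D1:**
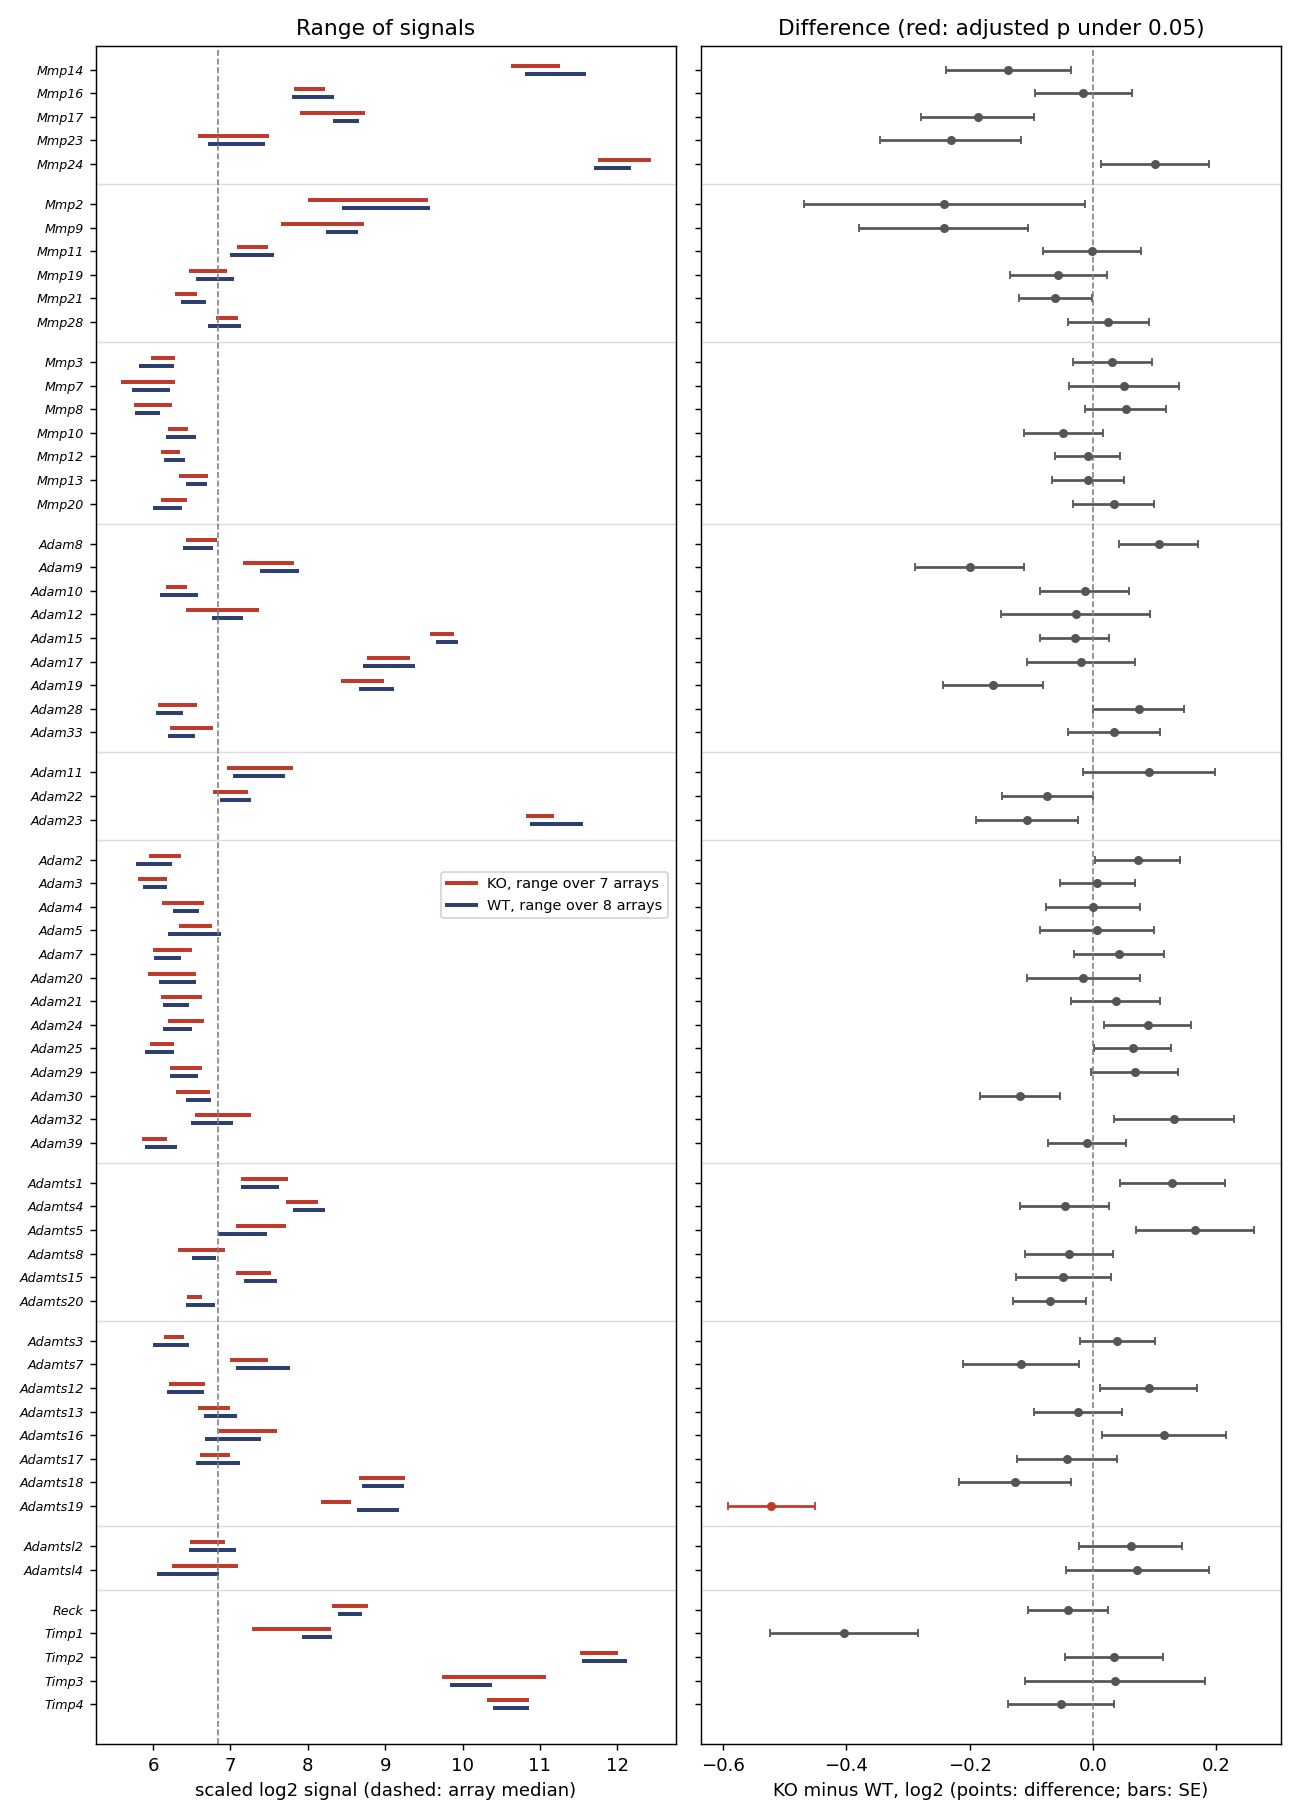
Left, lowest to highest scaled log2 signal of each of the 64 genes on the 7 KO arrays (red, upper bar) and the 8 WT arrays (blue, lower bar), with the array median of 6.84 dashed; right, KO minus WT difference on the log2 scale with its standard error. Genes are grouped by role from membrane-anchored Mmp genes at the top to the inhibitors at the bottom, and Adamts19, at -0.52, is the gene in red.

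Adamts19 encodes a secreted ADAMTS protease whose substrates are little known. Mutations of the human gene cause heart valve disease. The gene lies on chromosome 18 and has 1 probe on the array. Its signal was 8.20, 8.36 and 8.53 (lowest, median and highest) on the 7 KO arrays, and 8.66, 8.90 and 9.15 on the 8 WT arrays. The genotypes did not overlap, with the whole KO range under the WT range, which held for 1 of the 64 genes and for 0.0663% of all genes. Every array of both genotypes was above the array median.

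The KO mean of Adamts19 was 8.39 ± 0.12 (SD, n = 7) and the WT mean was 8.91 ± 0.14 (SD, n = 8). The log2 fold change was -0.52, with a standard error of 0.07, an adjusted p of 0.00147 in limma, and the signal fell by 30.3% in KO. By p it stood at rank 5 of all genes. An exact two-sided permutation test, with 6435 ways to split the arrays, gave p = 0.000155 before any adjustment. This is the smallest p it allows, and it restates that the genotypes did not overlap.

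Within arrays 1 to 4 the fold change of Adamts19 was -0.64 (adjusted p = 0.00827 in limma), and within arrays 5 to 8 it was -0.43 (adjusted p = 0.113). Exact permutation tests gave p = 0.0286 in each array set before any adjustment, again the smallest possible and a restatement of the lack of overlap. With the array set as a term in the model it was -0.53 (adjusted p = 0.000745). KO replicates 2 to 5 lay between 8.20 and 8.36 for Adamts19, and KO replicates 6, 7 and 8 between 8.48 and 8.53. Of 8 measured markers of inhibitory interneurons, 7 had a fold change below 0 and 1 was lower past the threshold, against 0.0783% of all genes. Their means were -0.30 to -0.06 on KO replicates 2 to 5, -0.08 to 0.05 on KO replicates 6, 7 and 8, and -0.02 to 0.24 on the WT arrays. The markers of Purkinje cells went both ways, with 4 of 8 below 0 and 1 higher past the threshold, against 0.0482% of all genes. They had means of -0.22 to -0.01 on KO replicates 2 to 5, 0.16 to 0.31 on KO replicates 6, 7 and 8, and -0.11 to 0.07 on the WT arrays. Among 11 measured markers of Bergmann glia and astrocytes, 7 had a fold change below 0 and 1 was lower past the threshold, against 0.0783% of all genes. They had means of 0.0002 to 0.11 on KO replicates 2 to 5, -0.21 to -0.13 on KO replicates 6, 7 and 8, and -0.13 to 0.15 on the WT arrays. Median fold changes were 0.07 for markers of the granule cell lineage and 0.12 for those of the oligodendrocyte lineage. Each of these lists had 1 marker higher past the threshold, against 0.0482% of all genes. The part of these markers in the result was not tested.

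Besides arrays 5 to 8 alone, the call on Adamts19 was lost under 2 alternatives. Without the arrays of high Ttr the fold change was -0.50 (adjusted p = 0.0785 in limma), and with Xist as a covariate it was -0.48 (adjusted p = 0.0523). WT replicates 5 and 6, which like 6 of the KO arrays had low Xist, had Adamts19 signals of 8.91 and 8.86. KO replicate 7, with high Xist, had 8.49. The part of Xist in the result was not tested beyond this covariate.

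**Figure D2:**
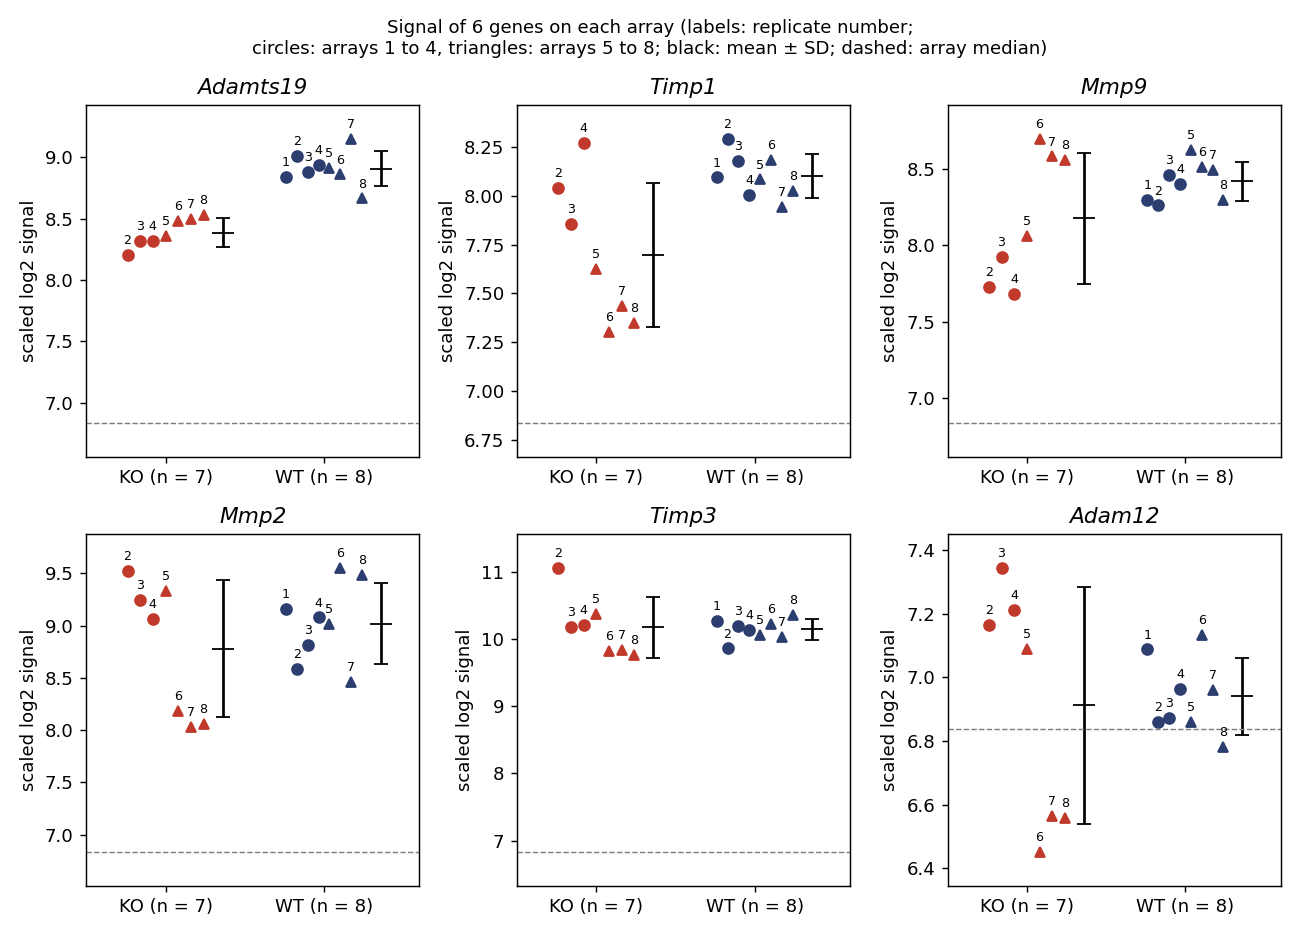
Scaled log2 signal of Adamts19, Timp1, Mmp9, Mmp2, Timp3 and Adam12 on each array, KO left of WT, with the replicate number over each point, circles for arrays 1 to 4, triangles for arrays 5 to 8, mean ± SD in black and the array median dashed. The genotypes do not overlap for Adamts19, and KO replicates 6, 7 and 8 lie apart from the other KO arrays for all 6 genes, above them for Adamts19 and Mmp9 and below them for the other 4.

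Among the other ADAMTS proteases, Adamts18, known for a role in the development of eye and lung, was above the array median on all 15 arrays. Its signals were 8.69, 8.89 and 9.24 in KO and 8.72, 9.08 and 9.22 in WT, with ranges that overlapped almost whole. The log2 fold change was -0.13 ± 0.09 (SE; adjusted p = 0.970 in limma). Adamts7, which cuts cartilage oligomeric matrix protein, was also above the median on all 15 arrays, with a fold change of -0.12. The other 5 of these 8 genes lay above the median on some arrays (Adamts13, Adamts16 and Adamts17) or on none (Adamts3 and Adamts12).

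The ADAMTS enzymes that cut aggregating proteoglycans comprised 6 measured genes, and 4 of them (Adamts1, Adamts4, Adamts5 and Adamts15) were above the array median on all 15 arrays. Adamts5 had 7.10, 7.32 and 7.69 in KO and 6.87, 7.15 and 7.45 in WT. Adamts1 had 7.17, 7.34 and 7.72 in KO and 7.17, 7.23 and 7.60 in WT. The KO median was the higher one for both, but the ranges overlapped, with log2 fold changes of 0.17 ± 0.10 for Adamts5 and 0.13 ± 0.09 for Adamts1 (SE) and adjusted p-values of 0.930 and 0.954 in limma. Adamts4, the first enzyme found to cut aggrecan, differed by -0.05 and Adamts15 by -0.05. Adamts20, an enzyme of versican needed by migrating pigment cells, was above the median on no array, and its difference was -0.07. Adamts8 was above the median on 1 array. Adamts9 was not analysed here. Adamtsl2 and Adamtsl4, matrix proteins that bind fibrillin and lack a protease domain, were above the median on some arrays and differed by 0.06 and 0.07.

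The proteins these enzymes cut were followed through a list of 19 genes, of which 17 were measured and 0 passed the threshold in either direction. Bcan, which encodes the brain proteoglycan brevican, had the lowest p. Its signals were 10.61, 11.11 and 11.26 in KO and 10.41, 10.51 and 11.04 in WT, with a log2 fold change of 0.41 ± 0.10 (SE; adjusted p = 0.195 in limma). It was higher past the threshold in arrays 1 to 4 alone, at 0.65 (adjusted p = 0.00343 in limma), against 0.21 in arrays 5 to 8 alone (adjusted p = 0.682). Bcan also passed without WT replicate 7 (adjusted p = 0.0274) and without KO replicate 6 (adjusted p = 0.0490). It passed as well without KO replicates 6, 7 and 8 together (adjusted p = 0.0216), an alternative chosen after seeing the data. At the threshold of 0.05 Bcan passed under no other alternative. The fold change was 0.24 without the arrays of high Ttr (adjusted p = 0.676 in limma) and 0.36 with Xist as a covariate (0.595). With the mean over probes it was 0.28 (adjusted p = 0.125). Reln, the reelin gene of granule cells, whose protein guides Purkinje cells and is cut by ADAMTS enzymes, differed by 0.19 ± 0.06 (SE; adjusted p = 0.404 in limma). Its KO arrays lay between 14.20 and 14.34 and its WT arrays between 13.92 and 14.29, an overlap at the top of the WT range.

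All 5 inhibitors were above the array median on all 15 arrays, and 0 passed the threshold. Timp1, which inhibits most matrix metalloproteases and is induced in injured and inflamed tissue, came nearest. Its signals were 7.30, 7.63 and 8.27 in KO and 7.95, 8.09 and 8.29 in WT. In 5 of the 7 KO samples Timp1 was below the WT minimum, and KO replicates 2 and 4, at 8.04 and 8.27, lay inside the WT range. The KO mean was 7.70 ± 0.37 (SD, n = 7) and the WT mean 8.10 ± 0.11 (SD, n = 8). The log2 fold change was -0.40 with a standard error of 0.12 (adjusted p = 0.403 in limma, unadjusted p = 0.00316), and an exact permutation test gave p = 0.0145 before any adjustment. A second Timp1 probe gave -0.43 (adjusted p = 0.261 in limma).

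The array sets differed for Timp1. The fold change was -0.09 within arrays 1 to 4 (adjusted p = 0.857 in limma) and -0.63 within arrays 5 to 8 (adjusted p = 0.0163), where Timp1 was the 1 of 64 genes that passed, against 0.223% of all genes lower. The difference between the sets, -0.54, had an unadjusted p of 0.00129 and an adjusted p of 0.232 in limma. KO replicates 6, 7 and 8 had 7.30, 7.44 and 7.35 and were the lowest 3 of the 15 arrays. They also had the lowest means of all arrays for the meningeal, endothelial, pericyte, microglial and choroid plexus markers. The same held for Bergmann glia and astrocyte markers, where KO replicate 7 (-0.1307) lay just under WT replicate 1 (-0.1303). For the Purkinje cell markers their means were the highest. The part of these markers in the result was not tested. Without these 3 arrays, an alternative chosen after seeing the data, the fold change of Timp1 was -0.15 (adjusted p = 0.918 in limma). Timp1 lies on the X chromosome. With Xist as a covariate its fold change was -0.49 (adjusted p = 0.475).

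Timp2, an inhibitor that also helps to activate Mmp2 at the cell surface, had 11.55, 11.72 and 11.98 in KO and 11.57, 11.63 and 12.10 in WT, and differed by 0.03 ± 0.08 (SE). Timp4, an inhibitor of heart and brain, had 10.34, 10.60 and 10.84 in KO and 10.42, 10.66 and 10.84 in WT, and differed by -0.05 ± 0.09. Reck, a membrane protein that also serves Wnt7 signalling in brain vessels, had 8.34, 8.48 and 8.76 in KO and 8.42, 8.58 and 8.67 in WT, and differed by -0.04 ± 0.07. For these 3 inhibitors the ranges of the genotypes overlapped almost whole. Timp3, which binds to the matrix and also inhibits ADAM17, averaged 10.18 ± 0.45 in KO (SD, n = 7) and 10.14 ± 0.16 in WT (SD, n = 8). The wider spread in KO came from replicate 2, at 11.06, and from replicates 6, 7 and 8, between 9.76 and 9.84, below the lowest WT array at 9.86.

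Other extracellular protease inhibitors outside the symbol rule were taken as a list of 19 genes. Of 16 measured, 1 was lower and 1 was higher in KO, against 0.0783% and 0.0482% of all genes. The list was chosen with earlier results of these data known, so these counts are a description and not a test. Thbs2, a matrix protein that carries Mmp2 into the cell for breakdown, had 8.09, 8.40 and 8.86 in KO and 9.17, 9.32 and 9.56 in WT. The whole KO range lay under the WT range, which held for 0.0663% of all genes. The log2 fold change was -0.85 ± 0.10 (SE, adjusted p = 0.0002 in limma). Sfrp1, a secreted Wnt antagonist that also inhibits ADAM10, had 8.52, 9.48 and 10.12 in KO and 7.99, 8.49 and 8.79 in WT. Its ranges overlapped, and the fold change was 1.12 ± 0.18 (SE; adjusted p = 0.00947 in limma). Within arrays 1 to 4 alone neither passed, with 1.01 for Sfrp1 (adjusted p = 0.376) and -0.70 for Thbs2 (adjusted p = 0.0564). The call on Sfrp1 was also lost with Xist as a covariate (adjusted p = 0.198) and with a trended and robust variance (adjusted p = 0.0658).

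Among the secreted matrix metalloproteases outside the gene cluster of chromosome 9, Mmp2, Mmp9 and Mmp11 of 6 genes were above the array median on all 15 arrays. Mmp9, the gelatinase that is studied in granule cell migration, had 7.68, 8.06 and 8.70 in KO and 8.26, 8.43 and 8.62 in WT. KO replicates 2, 3, 4 and 5, at 7.73, 7.93, 7.68 and 8.06, lay below every WT array, whereas KO replicates 6, 7 and 8, at 8.70, 8.58 and 8.56, lay in the upper part of the WT range or above it. Over all arrays the log2 fold change was -0.24 ± 0.14 (SE; adjusted p = 0.929 in limma), and an exact permutation test gave p = 0.151.

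Within arrays 1 to 4 Mmp9 had a fold change of -0.58 (adjusted p = 0.0338 in limma), and with Adamts19 it was 1 of 2 genes of the 64 that passed there, against 0.0603% of all genes lower. Within arrays 5 to 8 its fold change was -0.01 (adjusted p = 0.991). The difference between the sets was 0.57 (unadjusted p = 0.00318, adjusted p = 0.268 in limma). Leaving out KO replicates 6, 7 and 8, on which Mmp9 was high, was an alternative chosen after seeing the data. The fold change of Mmp9 was then -0.57 (adjusted p = 0.00842 in limma), a value that the choice of arrays favours and that is no test of Mmp9. Adamts19 and Mmp9 were the 2 of 64 genes that passed there, against 0.0844% of all genes lower.

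Mmp2, the gelatinase of fibroblasts and vessel walls, had 8.03, 9.07 and 9.53 in KO and 8.46, 9.05 and 9.55 in WT. KO replicates 6, 7 and 8, at 8.19, 8.03 and 8.06, were the lowest of the 15 arrays, and the other 4 KO arrays lay between 9.07 and 9.53, inside the WT range. The log2 fold change was -0.24 ± 0.23 (SE; adjusted p = 0.991 in limma), with 0.37 within arrays 1 to 4 and -0.73 within arrays 5 to 8. The difference between the sets was -1.10 (unadjusted p = 0.00878, adjusted p = 0.335 in limma). Mmp11, a relative of the stromelysins first found in stromal cells, differed by less than 0.01. Mmp19 and Mmp28 were above the median on some arrays and Mmp21 on none, and none of them passed the threshold.

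Besides Timp1, Timp3 and Mmp2, the gene Adam12, a sheddase of mesenchymal cells singled out after its values were seen, also had KO replicates 6, 7 and 8 at the bottom. Its values there were 6.45, 6.56 and 6.56, against 7.09 to 7.35 on the other KO arrays and 6.78 to 7.13 on the WT arrays. KO replicates 6, 7 and 8 were the lowest 3 arrays for 4 of the 64 genes, against 2.18% of all genes, and the highest 3 for 2 of them (Adam32 and Mmp7), against 2.54%. KO replicates 2 to 5 were the lowest 4 arrays for 2 of the 64 (Adamts19 and Mmp9), against 0.241% of all genes, and the highest 4 for 0, against 0.205%. These patterns were read from the values and were not tested. None of these 4 genes is in the list of meningeal markers. The plot of signals beside the meningeal markers shows the 3 arrays at its left edge for each gene, low for Timp1, Mmp2, Timp3 and Adam12 and high for Mmp9.

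**Figure D3:**
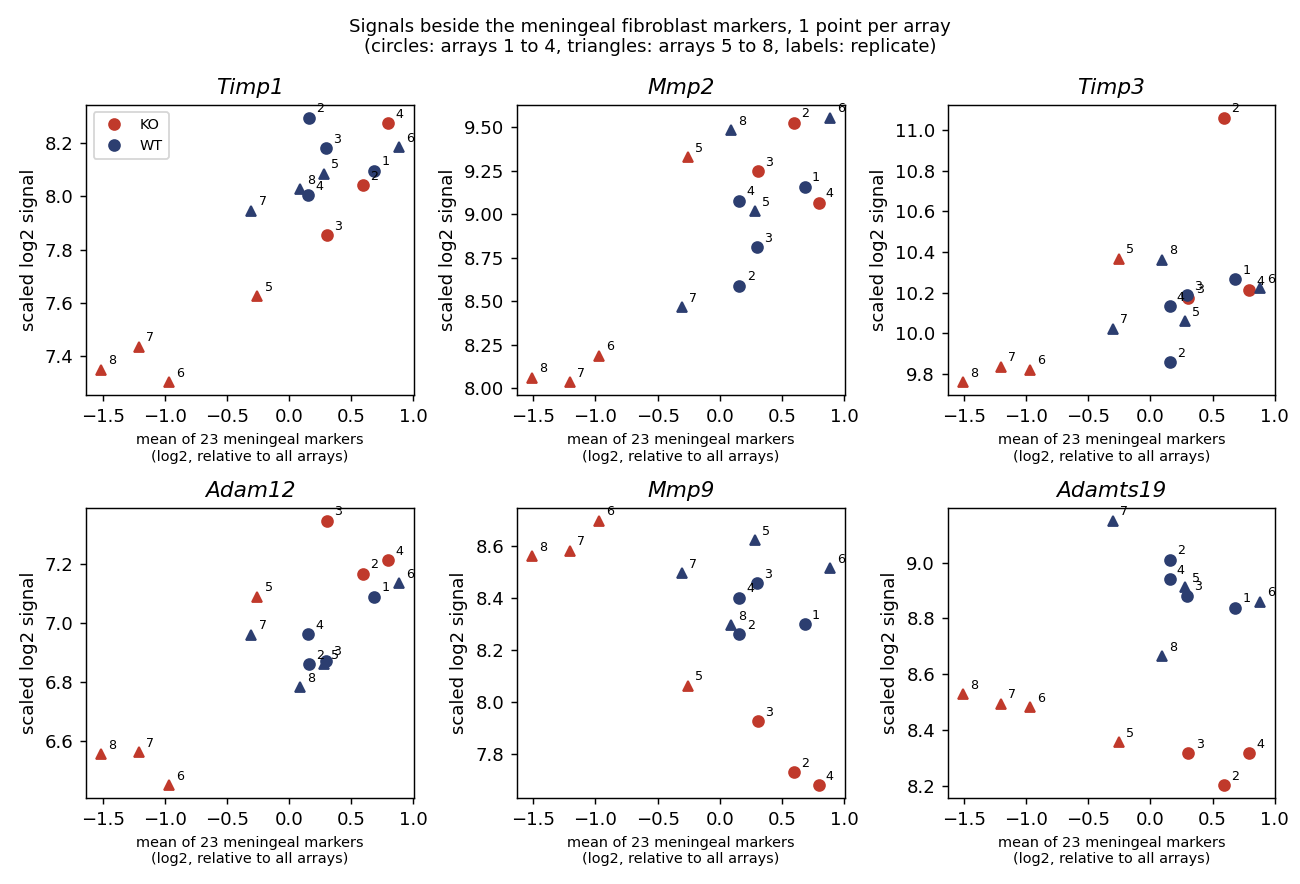
Scaled log2 signal of 6 genes against the mean of 23 meningeal fibroblast markers (log2, relative to all arrays), 1 point per array, KO in red, WT in blue, circles for arrays 1 to 4 and triangles for arrays 5 to 8. KO replicates 6, 7 and 8 have marker means of -1.51 to -0.97, where no WT array lies, and all 7 KO points for Adamts19 lie below the 8 WT points.

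The membrane-anchored matrix metalloproteases comprised 5 measured genes, and Mmp14, Mmp16, Mmp17 and Mmp24 were above the array median on all 15 arrays. Mmp14, the activator of Mmp2 and a main collagenase of mesenchymal cells, had 10.66, 11.05 and 11.23 in KO and 10.83, 11.08 and 11.57 in WT. Its log2 fold change was -0.14 ± 0.10 (SE; adjusted p = 0.970 in limma). Mmp24, a protease of neurons that cuts N-cadherin, had 11.77, 12.05 and 12.41 in KO and 11.73, 11.87 and 12.16 in WT, and differed by 0.10 ± 0.09. The ranges overlapped for both. Mmp17 differed by -0.19 ± 0.09 and Mmp16 by -0.02 ± 0.08. Mmp23 was above the median on 11 arrays and differed by -0.23 ± 0.11, without passing the threshold (adjusted p = 0.891).

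The ADAM proteases known from many tissues counted 9 genes, and Adam9, Adam15, Adam17 and Adam19 were above the array median on all 15 arrays. Adam17, the main sheddase of EGF receptor ligands and tumour necrosis factor, had 8.79, 9.14 and 9.30 in KO and 8.74, 9.07 and 9.36 in WT, and differed by -0.02 ± 0.09 (SE). Its difference did not exceed the spread between arrays. Adam10, the sheddase of Notch and N-cadherin, was above the median on no array with its 1 probe, and differed by -0.01 ± 0.07. The signal of Adam10 lay between 6.11 and 6.56, and so low a signal limits what its small difference can show. Adam8, Adam28 and Adam33 were also above the median on no array, and none of them passed the threshold.

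Adam9, a sheddase that also binds integrins, had 7.19, 7.33 and 7.80 in KO and 7.41, 7.57 and 7.86 in WT. In 4 of the 7 KO samples it was below the WT minimum. The log2 fold change was -0.20 ± 0.09 (SE), with an unadjusted p of 0.0351 and an adjusted p of 0.799 in limma, and an exact permutation test gave p = 0.0541. Adam19, which cuts neuregulin, had 8.46, 8.69 and 8.96 in KO and 8.69, 8.78 and 9.09 in WT, and differed by -0.16 ± 0.08 (SE; adjusted p = 0.893). Adam15 differed by -0.03 ± 0.06.

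Adam11, Adam22 and Adam23, of the nervous system, encode proteins that have lost the protease activity and act as receptors of LGI proteins at synapses and on axons. Adam23 had 10.85, 11.04 and 11.16 in KO and 10.89, 11.08 and 11.53 in WT, and differed by -0.11 ± 0.08 (SE). Adam11, which is needed at the synapses of basket cells on Purkinje cells, had 6.98, 7.51 and 7.78 in KO and 7.06, 7.29 and 7.68 in WT, and differed by 0.09 ± 0.11. Adam22 was above the median on 14 arrays and differed by -0.07 ± 0.07. The ranges overlapped for all of them. Dimmer probes of Adam11 and Adam23 gave other values. For Adam11, a probe above the median on 4 arrays gave 0.23 (unadjusted p = 0.0267, adjusted p = 0.821 in limma), and another gave 0.04. For Adam23 they gave 0.10 and 0.03, opposite in sign to the brightest probe.

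The membrane proteins that ADAMs cut were listed as 45 genes, of which 40 were measured and 0 passed in either direction. The lowest p-values were those of Dll1, a Notch ligand, at -0.17 ± 0.06 (SE; adjusted p = 0.605 in limma), and Lgi3, at 0.21 ± 0.10 (adjusted p = 0.881). Of the activators, co-receptors and chaperones of metalloproteases, 21 of 24 were measured and 0 passed. Pcolce, an enhancer of collagen processing, had the lowest p there, at -0.68 ± 0.31 (adjusted p = 0.848), followed by Tspan14, a chaperone of ADAM10, at -0.10 ± 0.07. Of 14 other zinc metallopeptidases, 12 were measured and 0 passed, with the lowest p-values for Ece1, which activates endothelins, at -0.15 ± 0.07, and Tll1, a relative of Bmp1, at 0.13 ± 0.07.

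**Figure D4:**
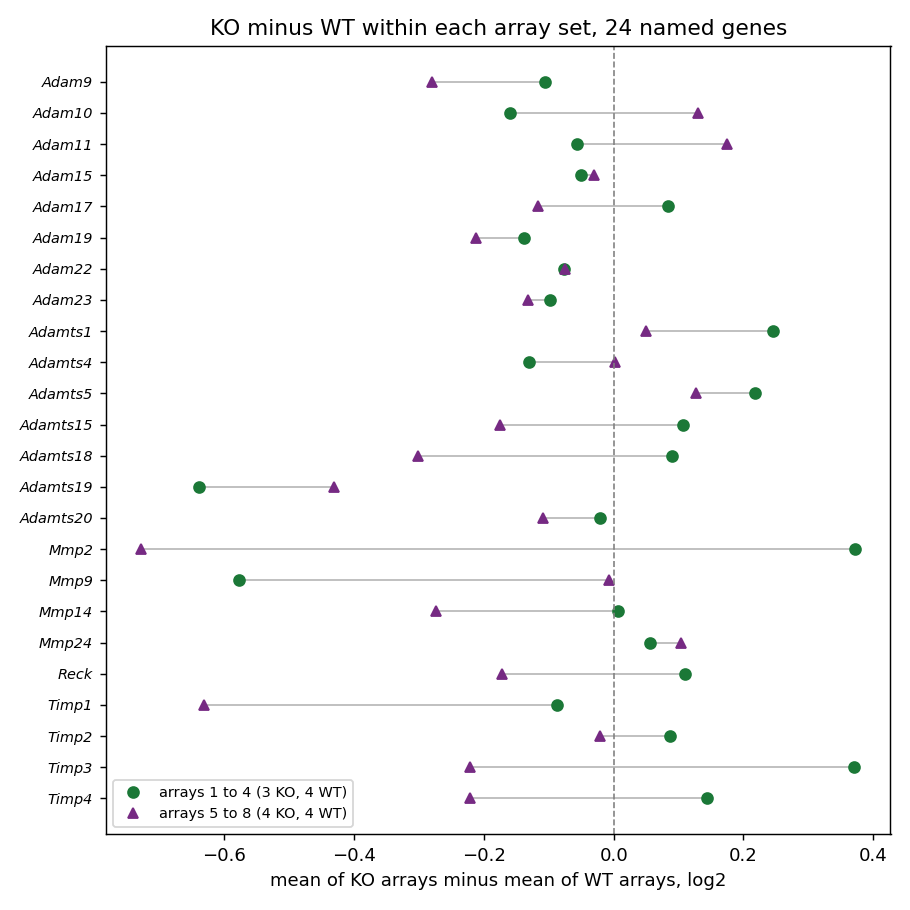
Mean of the KO arrays minus mean of the WT arrays, on the log2 scale, within arrays 1 to 4 (circles) and within arrays 5 to 8 (triangles) for the 24 named genes. Adamts19 lies at -0.64 and -0.43, while Mmp2 lies at 0.37 and -0.73, and Timp1 and Mmp9 lie far below 0 in 1 set each.

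The fold changes of some of these genes differed between the array sets. An interaction of genotype with array set had an unadjusted p under 0.05 for 11 of the 64, against 9.97% of all genes, and an adjusted p under the threshold for 0, against 0.0% of all genes. The 11 included Timp1, Timp3, Timp4 and Reck of the inhibitors, each with a lower fold change in arrays 5 to 8 than in arrays 1 to 4, and Mmp2, Mmp9, Mmp7, Adam10, Adam12, Adam32 and Adamts18. KO replicates 6, 7 and 8 belong to arrays 5 to 8, beside KO replicate 5. For all of the 11 but Adam10 and Reck, KO replicates 2 to 5 and KO replicates 6 to 8 did not overlap. The share of all genes with such a gap was not computed. Picking genes by this interaction favours such a gap, so it is no result about these genes. KO replicate 5 had 9.33 for Mmp2, against 8.03 to 8.19 on KO replicates 6 to 8, and 8.06 for Mmp9, against 8.56 to 8.70. The parts of the array set and of KO replicates 6 to 8 in the interaction were not tested. For Adamts19 the interaction was 0.21 (unadjusted p = 0.126 in limma).

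The count of genes above the array median was not even over the families. On all 15 arrays 25 of the 64 genes were above the array median, which is 39.1% of them, against 48.0% of all genes. On no array were 26 above it (40.6%, against 37.9% of all genes), and 13 were above it on some arrays. The genes on no array included all 7 measured genes of the matrix metalloprotease cluster of chromosome 9 (Mmp3, Mmp7, Mmp8, Mmp10, Mmp12, Mmp13 and Mmp20), which encodes stromelysins, collagenases and relatives known for induction in wounds and inflammation. They also included 11 of 13 ADAM genes known from the testis and epididymis, and the other 2, Adam5 and Adam32, were above the median on some arrays only. These 20 genes differed between KO and WT by at most 0.13 on the log2 scale.

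Promoters were read from RefSeq's mouse sequences (GRCm38.p6), in which 38 of the 64 genes had an entry. Each window of 300 bases around a gene start was searched on both strands for the GC box (GGGCGG), the AP-1 motif (TGANTCA) and the TATA box (TATAAA). The GC box was present in 35.7% of all mouse promoters in the collection, the AP-1 motif in 7.81% and the TATA box in 13.6%. These shares count each promoter, whereas the genes below are counted once, also those with more than 1 promoter (Adam19 has 3). The share among other genes above the array median was not computed. Of the 14 genes with an entry that were above the array median on all 15 arrays, 12 had a GC box, 1 had an AP-1 motif (Adam19) and 1 had a TATA box (Adamts1). Of the 17 genes with an entry that were above it on no array, 4 had a GC box, 9 an AP-1 motif and 9 a TATA box. All 7 genes of the chromosome 9 cluster had a TATA box, 6 had an AP-1 motif and 0 had a GC box. A match describes the letters in the window and is no evidence of binding.

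Shown are the 100 bases before the start of 2 genes above the array median on every array and of 2 genes of the chromosome 9 cluster, all on the plus strand. Capitals mark the GC box in Mmp14 (chr14:54431498-54431597) and Timp1 (chrX:20870066-20870165), and the AP-1 motif followed by the TATA box in Mmp3 (chr9:7445722-7445821) and Mmp13 (chr9:7272414-7272513).
Mmp14: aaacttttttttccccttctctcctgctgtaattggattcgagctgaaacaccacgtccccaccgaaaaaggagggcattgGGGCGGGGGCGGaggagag
Timp1: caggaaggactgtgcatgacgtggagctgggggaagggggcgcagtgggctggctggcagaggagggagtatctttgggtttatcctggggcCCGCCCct
Mmp3: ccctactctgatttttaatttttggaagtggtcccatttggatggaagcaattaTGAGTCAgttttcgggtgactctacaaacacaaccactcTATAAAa
Mmp13: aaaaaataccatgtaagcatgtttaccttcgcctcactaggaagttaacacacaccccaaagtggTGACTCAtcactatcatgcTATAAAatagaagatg
In Mmp14 there are 2 adjoining GC boxes, which begin 19 and 13 bases before the start, and in Timp1 the box, read on the other strand as CCGCCC, begins 8 bases before it. In Mmp3 the AP-1 motif begins 46 bases and the TATA box 7 bases before the start, and in Mmp13 they begin 35 and 16 bases before it. Mmp14 and Timp1 had signals between 7.30 and 11.57 on the 15 arrays. The 7 genes of the cluster, Mmp3 and Mmp13 included, lay between 5.61 and 6.69 on all arrays, below the array median of 6.84.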

How the data were processed

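Gene expression in P1 cerebella of 7 KO and 8 WT mice was measured on Illumina MouseRef-8 v2 BeadChips, with 1 array per sample. The labelled genotype set the groups, and which samples shared a BeadChip is not in the labels. The methods call the replicates biological, and p-values measure the spread between these samples. RNA was amplified and labelled with biotin. The authors read the signals in GenomeStudio and deposited the signal intensity of 25697 probes without normalization between arrays. They also deposited log2 values with a common median of 6.84, which equal the log2 of the first table scaled to the array medians to within 6.23e-05. No detection p was used.

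Of the probes, 23978 had 1 gene symbol in the platform annotation, with symbols updated through RefSeq (GRCm38.p6), and 1719 had none. The 64 genes had 92 probes, and 18 genes had more than 1. Symbols with a letter after the number (6 genes) were left out. Log2 signals were scaled to the common median, the probe with the highest mean stood for its gene, and KO was compared with WT by limma 3.58.1 (lmFit and eBayes, two-sided) in R 4.3.3. The number of arrays limits the precision. Scripts were tested on simulated data. Other values came from Python 3.11.15, numpy 2.4.6 and pandas 2.3.3, and figures from matplotlib 3.10.9.

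The genes and the lists were chosen with earlier results of these data known. Named were members past the threshold or with an unadjusted p under 0.05, those whose genotypes do not overlap, the 12 with the highest mean signal, the 5 with the largest SD, the inhibitors, the proteoglycan-cutting Adamts genes, Adam10, Adam17, Mmp2, Mmp9, Mmp14 and the inactive ADAMs. Of each pathway list, genes past the threshold and the 2 with the lowest p were named. Others (Adam12, and members given by group) were named after their values were seen. Same-numbered KO and WT samples did not deviate together, so the numbers were not used as pairs.

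Alternatives comprised a normexp background (offset 50), quantile or no normalization, the authors' log2 table, averaging the probes of each gene, keeping probes that exceeded the array median on 7 or more arrays, the array set or the replicate number as a block, each array set alone, no arrays of high Ttr, Xist as a covariate, array weights, a trended and robust variance, other thresholds, and leaving out each array. Leaving out KO replicates 6 to 8 together was added after seeing the data.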

Additional observations from a re-analysis of the deposited data

Results flagged for a closer look

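In 48 groups (24 named genes in KO and in WT), 4 held 1 array whose gap to its nearest neighbour was a large share of the group's whole range by Dixon's criterion. About 1 in 20 groups would be flagged if values were normally distributed and genes were not chosen by their values. Some genes were named for a large SD or a low p, and the groups share arrays. The 4 flags are therefore not set against that rate. Mmp14 on KO replicate 8 was 10.66, against 11.04 on the next KO array. Adam23 on WT replicate 7 was 11.53, against 11.17 on the next WT array, and Timp2 on the same array was 12.10, against 11.74. Adamts1 on WT replicate 4 was 7.60, against 7.30 on the next WT array.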

How the results depend on the processing

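Adamts19 kept its direction under every alternative run, with log2 fold changes of -0.64 to -0.43, and its adjusted p rose over the threshold under 3 of 30: -0.43 in arrays 5 to 8 alone (adjusted p = 0.113 in limma), -0.50 without the arrays of high Ttr (0.0785) and -0.48 with Xist as a covariate (0.0523). Leaving out each array in turn gave -0.56 to -0.49 (adjusted p = 0.00055 to 0.0048). The count of lower genes among the 64 was 2 in arrays 1 to 4 alone and 2 without KO replicates 6 to 8, an alternative chosen after seeing the data (Adamts19 and Mmp9 each time), 0 without the arrays of high Ttr and 0 with Xist as a covariate. It was 1 in arrays 5 to 8 alone, where the gene was Timp1 (-0.63, adjusted p = 0.0163). Leaving out any 1 array gave 1. The count of higher genes was 0 in all 33 settings.

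The median fold change of the 64 genes, -0.00928, was -0.0470 with the filter on dim probes, which left 32 of them, 0.00656 with the mean over probes, -0.0317 in arrays 1 to 4 alone, 0.00823 in arrays 5 to 8 alone and 0.0148 with Xist as a covariate, and -0.0193 to 0.00473 as each array was left out. The genes of the pathway lists past the threshold, 2 in all, were 1 in arrays 1 to 4 alone (Bcan), 1 with Xist as a covariate and 1 with a trended and robust variance, and 2 to 3 as each array was left out. The causes were not tested, though a single array set, and the arrays without high Ttr, are fewer samples by construction. Of the 64 genes, 17 to 26 were above the array median, with 17 when at least 0.5 above it was required. Calls of limma over all genes numbered 21, against 35 in the fit that blocks on the array set, 45 in arrays 5 to 8 alone, 13 with Xist as a covariate and 6 without the arrays of high Ttr.

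With the replicate number as a block, Adamts19 had a fold change of -0.53 (adjusted p = 0.0240), Timp1 -0.40 (0.294) and Adam9 -0.21 (0.458), and the count of lower genes among the 64 was 1. Over all genes 15 passed. The correlations of same-numbered samples ran between -0.20 and 0.39, and 1 of 7 KO samples correlated best with its own number.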
